A study of Mus musculus with 6 samples.

Results

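The TGF-beta receptors and SMADs described here are 9 genes, chosen by name: Tgfb1, Tgfbr1, Tgfbr2, Smad2, Smad3, Smad4, Smad7, Ski and Skil. Each had 1 row among the 14868 genes of the deposited table, and each passed the minimum mean of 10 that left 14864 genes for testing. The libraries came from naïve CD4+ T cells of wild-type (WT) mice and of Ikzf4-/- mice, which lack the Ikaros-family transcription factor Eos, 3 libraries each. Both strains were C57BL/6J, and how the Ikzf4 allele was made is not given in the sources used here. All cells of both genotypes were stimulated for 72 h by plate-bound antibodies, 5 µg/mL to CD3 and 2 µg/mL to CD28, and driven towards the T helper 2 (Th2) fate with 10 ng/mL IL-4 and 10 µg/mL of an antibody against interferon gamma. No TGF-beta is named among the additions, and the medium held serum.

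TGF-beta is a secreted cytokine that restrains T cell proliferation and effector differentiation and, with other cytokines, steers CD4+ T cells towards the regulatory and Th17 fates. The ligand brings a type II receptor (Tgfbr2) together with a type I receptor (Tgfbr1), whose kinase phosphorylates SMAD2 and SMAD3. These join SMAD4 and act on genes in the nucleus. SMAD7 blocks the receptor, and SKI and its relative SnoN, the product of Skil, hold SMAD complexes in a repressed state. Smad7 and Skil are themselves classical targets of the pathway, so both belong to its negative feedback.

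No gene of the 9 passed the test between genotypes. At an adjusted p under 0.05 by limma over all genes, 0 of 9 were called, against 1.77% of all genes tested. Without adjustment, 2 of 9 (22.2%) had a p under 0.05, Ski and Skil, where the share of all genes was 18.1%. The same 2 genes were those whose values did not overlap between genotypes, and that share, 22.2%, lay near the 23.1% of all genes. In the authors' deposited table Ski alone, 1 of 9 (11.1%), had an adjusted p under 0.05, against 6.34% of the genes given one there. The median log2 change, the log2 of the fold of Ikzf4-/- over WT, of the 9 was -0.00038, beside 0.0048 for all genes, and the median size of the change was 0.065 beside 0.11.

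**Figure D1:**
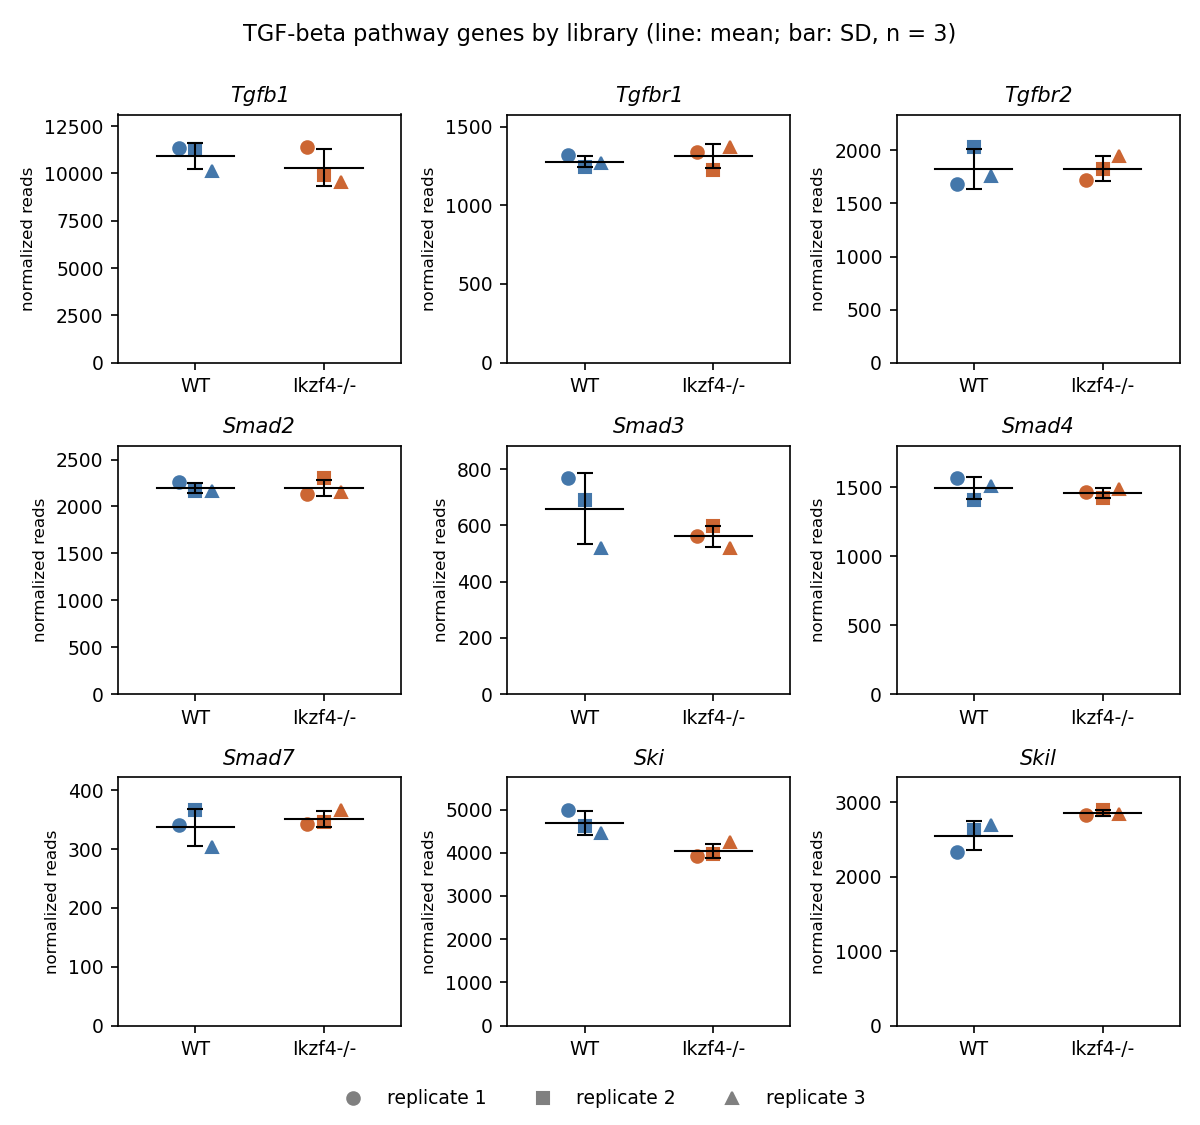
Normalized reads of each gene (vertical axes, from 0, with a separate scale per gene) in the 3 WT and 3 Ikzf4-/- libraries; symbols give the replicate number, lines the mean and bars the SD. The genotypes separate for Ski (4462 or more in WT, 4240 or less in Ikzf4-/-) and Skil (2693 or less in WT, 2833 or more in Ikzf4-/-) and overlap for the other 7.

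Ikzf4 itself had 756, 499.6 and 483 normalized reads in WT replicates 1 to 3 and 25.2, 10.5 and 38.2 in the Ikzf4-/- replicates, so each library matched its label (log2 change -4.64, SE 0.37, limma adjusted p = 0.00039). Values divided by the step of each library gave an implied depth of 34701390 to 40604346 reads. The T cell genes Cd3d, Cd3e, Cd3g, Cd4 and Cd28 and the Th2 genes Gata3, Il4 and Il13 each had at least 212 normalized reads in every library, and of these Il4 (log2 change -0.87, limma adjusted p = 0.014) and Il13 (-0.82, 0.045) were lower in Ikzf4-/- cells. Of the markers of other cells, summed levels were 51.1 to 83.6 in WT and 58.6 to 90.4 in Ikzf4-/- for the B cell genes Cd79a and Cd79b, 236 to 423 and 232 to 374 for the CD8 genes Cd8a and Cd8b1, 59.6 to 96.1 and 69.3 to 89.0 for the myeloid gene Cd68, and 17.0 to 38.6 and 12.1 to 36.2 for the NK gene Klrd1. Their part in the results was not tested, and 9 other markers on these lists, among them Pax5, Lyz2 and Ncr1, had no row. WT replicate 1 stood apart on the first principal component, at -41.3 against -12.5 and -5.26 for the other WT libraries and 11.1 to 30.8 for the Ikzf4-/- libraries. Replicates of a genotype differed by more than sampling noise (chi-square per degree of freedom 7.38 to 18.5). The labels do not say whether they came from separate animals or cultures, so p-values measure the spread between these libraries only. In bulk RNA, fewer cells expressing a gene and less RNA per cell cannot be told apart.

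The sequences upstream of 3 of the genes are given because promoters are among the places where SMADs and Ikaros-family proteins bind: Ski had the lowest p of the 9, Smad3 the largest fitted decrease, and Tgfbr2 is an example that hardly differed. Promoters from the RefSeq table (GRCm38.p6) were examined for 5 of the 9 genes. Those of Smad2, Smad4, Smad7 and Skil were not examined. Capitals mark CAGAC, the core SMAD box, and GGGAA, the core bound by Ikaros-family proteins, on either strand (GTCTG and TTCCC).
Ski, chr4:155222593-155222785, minus strand: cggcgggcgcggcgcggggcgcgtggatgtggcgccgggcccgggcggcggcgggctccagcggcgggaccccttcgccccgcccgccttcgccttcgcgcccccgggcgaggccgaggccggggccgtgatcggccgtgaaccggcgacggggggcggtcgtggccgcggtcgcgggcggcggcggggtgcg
Smad3, chr9:63757995-63758244, minus strand: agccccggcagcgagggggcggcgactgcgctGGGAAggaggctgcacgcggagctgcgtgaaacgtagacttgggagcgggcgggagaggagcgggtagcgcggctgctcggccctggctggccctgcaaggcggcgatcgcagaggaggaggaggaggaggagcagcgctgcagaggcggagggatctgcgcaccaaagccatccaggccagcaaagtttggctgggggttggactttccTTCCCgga
Tgfbr2, chr9:116175364-116175613, minus strand: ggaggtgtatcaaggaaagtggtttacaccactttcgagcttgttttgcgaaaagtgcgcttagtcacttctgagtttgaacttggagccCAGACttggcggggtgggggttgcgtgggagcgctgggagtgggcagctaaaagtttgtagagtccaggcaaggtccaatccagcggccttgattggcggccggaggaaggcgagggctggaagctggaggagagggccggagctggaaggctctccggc

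In the 250 bases before the RefSeq start, Smad3 held 2 matches to GGGAA, beginning 218 and 8 bases before the start, and none to CAGAC. Tgfbr2 held 1 match to CAGAC, 160 bases before the start, and none to GGGAA. Tgfbr1 has a pair of RefSeq starts: the window of the upstream one held neither, and that of the other held 1 match to CAGAC, 203 bases before it. Ski and Tgfb1 held neither. For Ski, the 57 bases next to the RefSeq start are counted but not printed, since the GENCODE M21 gene already begins there. Of all 32851 promoters in the table, 42.2% held CAGAC and 56.2% held GGGAA in the same window. The palindromic SMAD element GTCTAGAC, which itself does not contain CAGAC, occurred in 0.167% of them and in none of the 5 genes examined. The Ski window was 87.6% G and C, where the median of all promoters was 52.4%. A match is a string of letters and was not tested as a binding site.

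By level per length, the ligand gene led and the inhibitory SMAD came last. Normalized reads per kb of merged exons, the scale on which levels of different genes are compared here, averaged 2104 for Tgfb1 over the 6 libraries (range 1895 to 2261). Ski followed at 785 (707 to 898) and Smad4 at 398 (379 to 422), each apart from its neighbours in every library. Skil at 279, Smad2 at 250.3, Tgfbr2 at 223 and Tgfbr1 at 198 formed a group in which each range overlapped the next. Smad3 at 110.1 (93.9 to 138) and Smad7 at 76.1 (67.0 to 81.1) were lowest, again with no overlap between neighbours. On this scale the common partner SMAD4 thus had more RNA per length than SMAD2, and SMAD2 more than SMAD3. Dividing by the longest coding transcript instead kept the order of the 9 genes but moved Tgfb1 to 4877, because its merged exons span 5042 bp and its longest coding transcript 2175 bp. Then Smad4 (436) and Skil (403) overlapped, and Skil no longer overlapped Smad2 (272) nor Smad2 Tgfbr2 (226).

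**Figure D2:**
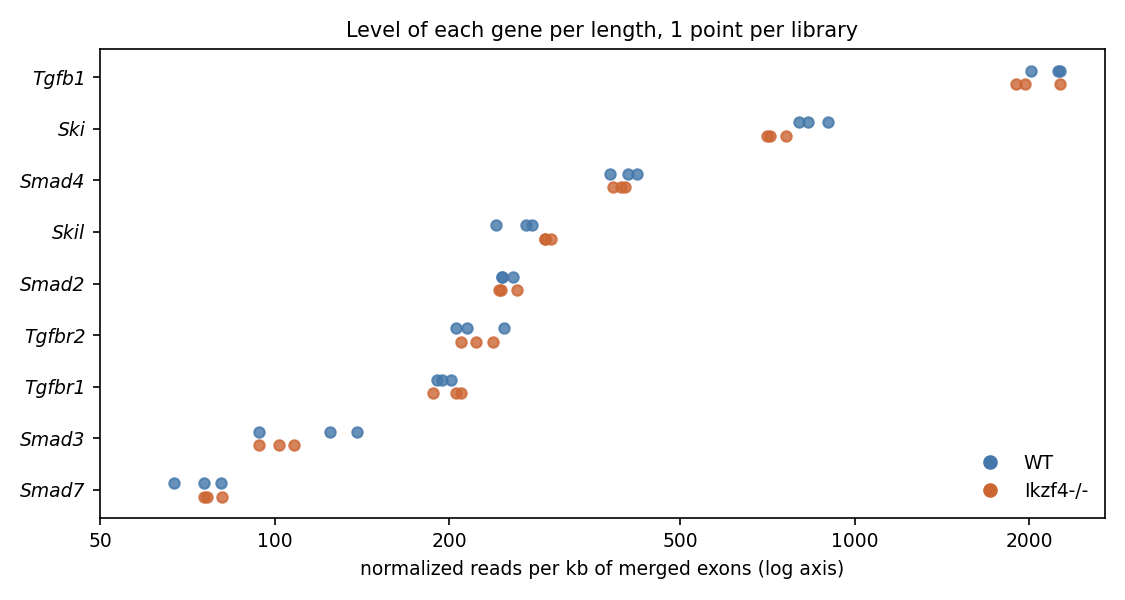
Normalized reads per kb of merged exons (horizontal log axis) for each gene, with 1 point per library in blue for WT and orange for Ikzf4-/-. Tgfb1 lies at 1895 to 2261, Smad7 at 67.0 to 81.1, and in the middle of the order the points of neighbouring genes overlap.

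Tgfb1 (ENSMUSG00000002603, chromosome 7, 25687002 to 25705077, plus strand of GRCm38) encodes the main TGF-beta ligand of lymphocytes. It had 11362, 11277 and 10129 normalized reads in WT replicates 1 to 3 and 11401, 9916 and 9556 in the Ikzf4-/- replicates. The Ikzf4-/- libraries held both the highest and the lowest value, and the genotypes overlapped. The mean was 10923 ± 688 in WT and 10291 ± 978 in Ikzf4-/- (SD, n = 3 each), a log2 change of -0.09 (SE 0.07, limma adjusted p = 0.55). The 95% interval of the fold ran from 0.846 to 1.05.

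Tgfbr1 (ENSMUSG00000007613, chromosome 4, 47353222 to 47414931, plus strand), the type I receptor and kinase, had 1317, 1244 and 1271 normalized reads in WT and 1342, 1225 and 1371 in Ikzf4-/- libraries. Every WT value lay within the Ikzf4-/- range. Its log2 change was 0.04 (SE 0.07, limma adjusted p = 0.81), with a 95% interval of the fold from 0.929 to 1.13. Tgfbr2 (ENSMUSG00000032440, chromosome 9, 116084293 to 116175360, minus strand), the receptor chain that binds the ligand first, had 1681, 2033 and 1760 normalized reads in WT and 1717, 1822 and 1950.0 in Ikzf4-/- libraries. Every Ikzf4-/- value lay within the WT range. The fitted log2 change was 0.01 (SE 0.08, limma adjusted p = 0.98), and its interval ran from 0.891-fold to 1.13-fold. The sign of this small value depended on single libraries: it was -0.05 without WT replicate 1, -0.02 without WT replicate 3 and -0.04 without Ikzf4-/- replicate 3.

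Smad2 and Smad3 encode the SMADs that the TGF-beta receptor phosphorylates. Smad2 (ENSMUSG00000024563, chromosome 18, 76241580 to 76310963, plus strand) differed least between genotypes, at 2263, 2162 and 2168 normalized reads in WT and 2136, 2299 and 2159 in Ikzf4-/- libraries. The means were 2198 ± 56.8 and 2198 ± 88.4 (SD, n = 3 each). The log2 change was -0.00038 (SE 0.05, limma adjusted p = 0.999), and the 95% interval of the fold, 0.921 to 1.09, was the narrowest among the 9 genes on the log scale.

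Smad3 (ENSMUSG00000032402, chromosome 9, 63646767 to 63757994, minus strand) varied most within a genotype. It had 768, 690.1 and 520.2 normalized reads in WT and 563, 599 and 521 in Ikzf4-/- libraries. WT replicates 1 and 2 were above all Ikzf4-/- libraries, and WT replicate 3 was below them, so the genotypes overlapped. The coefficient of variation was 19.2% in WT and 6.91% in Ikzf4-/-. With a mean of 659 ± 127 in WT and 561 ± 38.8 in Ikzf4-/- (SD, n = 3 each), the log2 change was -0.22 (SE 0.13, limma adjusted p = 0.43). Its 95% interval, from 0.705-fold to 1.05-fold, was the widest on the log scale. Single libraries moved it: the log2 change was -0.10 (adjusted p = 0.79) without WT replicate 1 and -0.38 (0.069) without WT replicate 3.

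Smad4 (ENSMUSG00000024515, chromosome 18, 73639009 to 73703780, minus strand), the partner shared by the TGF-beta and BMP branches, had 1565, 1407 and 1507 normalized reads in WT and 1466, 1422 and 1489 in Ikzf4-/- libraries. The Ikzf4-/- values all fell inside the WT range. The log2 change was -0.03 (SE 0.06, limma adjusted p = 0.83), with a 95% interval of the fold from 0.890 to 1.07. Smad7 (ENSMUSG00000025880, chromosome 18, 75367529 to 75395935, plus strand), the inhibitor of the receptor and a feedback target, had 342, 366 and 303 normalized reads in WT and 342, 345 and 367 in Ikzf4-/- libraries. The lowest value was WT replicate 3, and the other 5 libraries lay between 342 and 367. The log2 change was 0.06 (SE 0.11, limma adjusted p = 0.80), and the 95% interval of the fold ran from 0.888 to 1.23.

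The corepressor genes Ski and Skil had the lowest p-values of the 9, in opposite directions. Ski (ENSMUSG00000029050, chromosome 4, 155154075 to 155222592, minus strand) had 4993, 4615 and 4462 normalized reads in WT and 3930.2, 3965 and 4240 in Ikzf4-/- libraries. All WT values were above all Ikzf4-/- values, and the gap between the nearest libraries, WT replicate 3 and Ikzf4-/- replicate 3, was narrow. The mean was 4690.0 ± 273 in WT and 4045 ± 169.5 in Ikzf4-/- (SD, n = 3 each). The log2 change of -0.21 (SE 0.06, unadjusted p = 0.0029) did not pass the limma test across all genes (adjusted p = 0.081). The 95% interval of the fold, 0.793 to 0.939, takes no account of the number of genes tested. In the authors' deposited table Ski had a log2 change of -0.21 and an adjusted p of 0.022, which is under 0.05. Over the 16 alternatives the adjusted p ran from 0.022 to 0.22, and the authors' table was the only one under 0.05.

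Skil (ENSMUSG00000027660, chromosome 3, 31095058 to 31122577, plus strand) had 2335, 2630.0 and 2693 normalized reads in WT and 2833, 2898 and 2839 in Ikzf4-/- libraries. All Ikzf4-/- values were above all WT values and lay close together, with an SD of 35.9 around a mean of 2857 (n = 3), against 191 around 2553 in WT (n = 3). The log2 change of 0.16 (SE 0.06, unadjusted p = 0.020) did not pass the limma test (adjusted p = 0.18), nor did it in the authors' deposited table (adjusted p = 0.175). The 95% interval of the fold was 1.02 to 1.23. Both genes leaned on the WT library that stood apart: WT replicate 1 had the highest Ski and the lowest Skil value. Without it the log2 change was -0.17 for Ski (limma adjusted p = 0.17) and 0.10 for Skil (0.44). The adjusted p of Ski was higher still without Ikzf4-/- replicate 1 (0.19, log2 change -0.19) or Ikzf4-/- replicate 2 (0.22, -0.20).

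**Figure D3:**
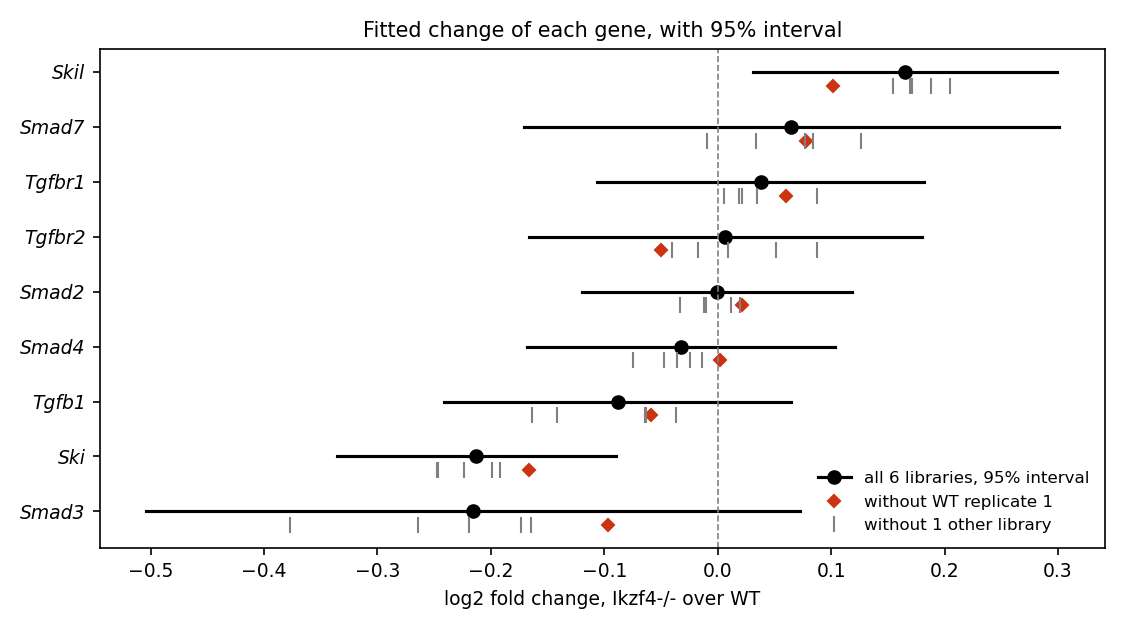
Fitted log2 change (horizontal axis, Ikzf4-/- over WT) of each gene with its 95% interval (black), and the value when 1 library is left out (red diamond for WT replicate 1, grey ticks for the others). The intervals of Ski and Skil lie on one side of 0 before adjustment for the number of genes, and Smad3 spreads from -0.38 to -0.10 over the fits without 1 library.

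The balance of related genes was examined as 4 ratios of normalized reads within each library, which do not depend on how libraries are scaled. With 3 libraries against 3, the two-sided exact permutation test cannot give a p below 0.1. The ratio of Skil to Ski was 0.468, 0.5699 and 0.604 in WT and 0.721, 0.731 and 0.6697 in Ikzf4-/- libraries. It was higher in all 3 Ikzf4-/- libraries than in any WT library, with means of 0.547 ± 0.0708 and 0.707 ± 0.0328 (SD, n = 3 each), a 1.30-fold difference (exact permutation p = 0.1, adjusted over the 4 ratios 0.4). This separation follows from the values of Ski and Skil given above, which separated in opposite directions, and is not a further result. Without WT replicate 1 the log2 difference of this ratio was 0.27, against 0.38 with all libraries.

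The ratio of Smad7 to Smad3, an inhibitory against a receptor-activated SMAD, had means of 0.519 ± 0.0691 in WT and 0.629 ± 0.0659 in Ikzf4-/- (SD, n = 3 each; exact permutation p = 0.2, adjusted 0.4). WT replicate 3, at 0.582, lay above Ikzf4-/- replicate 2, at 0.577, so the genotypes overlapped. Smad3 to Smad2 had means of 0.299 ± 0.0525 and 0.255 ± 0.0119 (SD, n = 3 each; exact permutation p = 0.4, adjusted 0.53), with WT replicate 3 again below the Ikzf4-/- libraries. The receptor chains kept nearly the same ratio, Tgfbr2 to Tgfbr1, at 1.43 ± 0.184 and 1.40 ± 0.106 (SD, n = 3 each; exact permutation p = 1, adjusted 1). With its floor of 0.1, the permutation test could not pass any of the 4 ratios at 0.05, so it decides nothing about them.

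**Figure D4:**
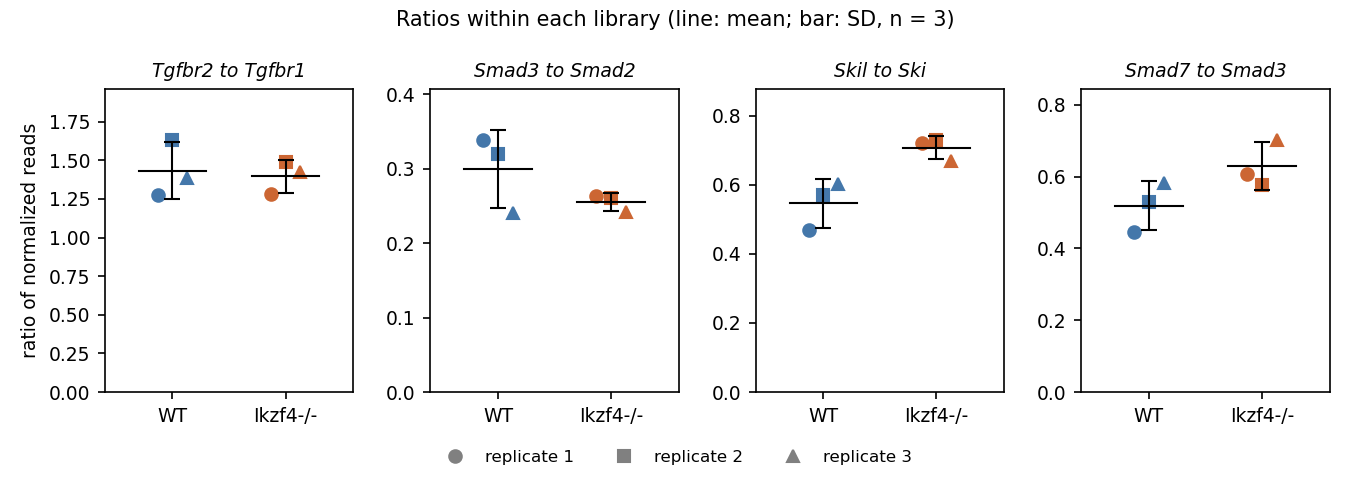
Ratios of normalized reads within each library (vertical axes, from 0, a separate scale per ratio) for WT and Ikzf4-/- libraries; symbols give the replicate number, lines the mean and bars the SD. Only the Skil to Ski ratio separates the genotypes, with at most 0.604 in WT and at least 0.6697 in Ikzf4-/-. This follows from the separation of each of these genes alone, in opposite directions.

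Around these 9 genes, 76 of 87 further genes of the pathway, in 7 lists by role, had a row and were tested. Of these, 1 fell in Ikzf4-/- cells at a limma adjusted p under 0.05, Junb, against 1.2% of all genes lower, and 0 rose, against 0.572% of all genes higher. Without adjustment, 19 of the 76 (25%) had a limma p under 0.05 in either direction, against 18.1% of all genes. Groups did not overlap for 23 of the 76 genes (30.3%, against 23.1% of all genes). The median log2 change over the 76 was -0.04. At an adjusted p under 0.05 in the authors' deposited table, 4 were lower and 4 higher. This is a larger share than the 6.34% of all genes given an adjusted p there, in either direction. Ltbp4, Bambi and Cdkn2b were given none.

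Junb was on the list of genes that TGF-beta induces in many cells, 13 of 15 with a row, which also respond to other signals. This list had a median log2 change of -0.33, with 1 gene lower and 12 not called. Junb, an AP-1 subunit induced by T cell receptor signals as well, had 30663, 26307 and 24526 normalized reads in WT and 19553, 22000 and 19476 in Ikzf4-/- libraries. All WT values were above all Ikzf4-/- values. It fell to 0.751-fold (log2 change -0.41, SE 0.08, limma adjusted p = 0.032). Junb was called in 13 of 16 alternatives, among them the authors' deposited table (adjusted p = 8.29e-06). Some fits with fewer libraries lost the call, though the fitted change stayed similar. Dropping Ikzf4-/- replicate 3 gave a limma adjusted p of 0.13 and a log2 change of -0.38. Dropping Ikzf4-/- replicate 1 gave 0.097 and -0.39, and dropping WT replicate 2 gave 0.065 and -0.43. Calls over all genes were also fewer there, at 20, 48 and 75, against 263 with every library.

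Other genes of that list did not pass. Cdkn1a, the p21 inhibitor of the cell cycle, had means of 2825 ± 724 in WT and 4031 ± 405 in Ikzf4-/- (SD, n = 3 each; log2 change 0.54, limma adjusted p = 0.086). It was called with the replicate block (0.0060), with array weights (0.038) and without WT replicate 3 (0.010), and not in the authors' deposited table (0.19). Gadd45b, a stress-induced gene, had a log2 change of -0.33 (limma adjusted p = 0.084). It was called with the replicate block (0.044), with array weights (0.0495) and in the authors' deposited table (0.027). The directions within the list were mixed, with 9 fitted lower and 4 higher.

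Among other receptors of the family, which include those of activins and BMPs beside Tgfbr3, Eng and Bambi, 0 of 10 with a row were called by limma. The median log2 change was -0.03. Acvrl1, the ALK1 type I receptor, had 95.8, 46.7 and 38.8 normalized reads in WT and 22.2, 28.3 and 14.1 in Ikzf4-/- libraries, the lowest fitted change of the 76 genes at -1.39 (SE 0.38, limma adjusted p = 0.091). Its WT mean leaned on replicate 1, without which the log2 change was -1.01. Acvr1, the ALK2 type I receptor, had 200.1, 203 and 179 normalized reads in WT and 292, 241 and 279 in Ikzf4-/- libraries (log2 change 0.48, SE 0.13, limma adjusted p = 0.086). Both were under 0.05 in the authors' deposited table, at 0.016 and 0.043. Bmpr2, a BMP type II receptor and the most abundant of the list by normalized reads, had a log2 change of 0.28 (limma adjusted p = 0.22).

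Ligands and the proteins that store or release them gave 0 calls among 11 genes with a row, with a median log2 change of -0.09. Nrros, which holds latent TGF-beta on myeloid cells, had means of 1901 ± 259 and 1582 ± 125 (SD, n = 3 each; log2 change -0.26, limma adjusted p = 0.18). Inhba, an activin subunit, had a log2 change of 0.19 (0.31), and Furin, the protease that matures the ligand, of -0.01 (0.93). For the BMP-branch SMADs, of which 2 of 4 had a row, Smad1 had a log2 change of -0.20 (limma adjusted p = 0.38) and Smad5 of -0.08 (0.65), so 0 were called.

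Turnover factors and scaffolds of receptors and SMADs likewise gave 0 calls among 18 genes, with a median of -0.01. Usp9x, a deubiquitinase that acts on SMAD4, had 5905, 6045 and 5813 normalized reads in WT and 6444, 6784 and 7220.2 in Ikzf4-/- libraries (log2 change 0.20, SE 0.05, limma adjusted p = 0.073). It was under 0.05 with quantile normalization, with array weights and in the authors' deposited table (0.017). Wwp2, a ubiquitin ligase, had a log2 change of -0.11 (limma adjusted p = 0.29), and Fkbp1a, the immunophilin that keeps the type I receptor inactive, of -0.09 (0.43).

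Nuclear partners of SMADs gave 0 calls among 14 genes, with a median of 0.07. Tgif1, a homeodomain corepressor of SMAD complexes, had 497, 549 and 581 normalized reads in WT and 730.4, 639 and 693 in Ikzf4-/- libraries (log2 change 0.34, SE 0.09, limma adjusted p = 0.084; 0.032 in the authors' deposited table). The coactivator gene Crebbp had a log2 change of 0.17 (limma adjusted p = 0.15), and Smarca4, the ATPase of a remodelling complex, of -0.03 (0.75). On the SMAD-independent branch 0 of 8 were called, with a median of -0.06. Map3k7, the kinase TAK1, had a log2 change of 0.21 (limma adjusted p = 0.086; 0.033 in the authors' deposited table), Mapk14, the p38 kinase, of -0.16 (limma adjusted p = 0.13) and Rhoa of -0.04 (0.71).

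**Figure D5:**
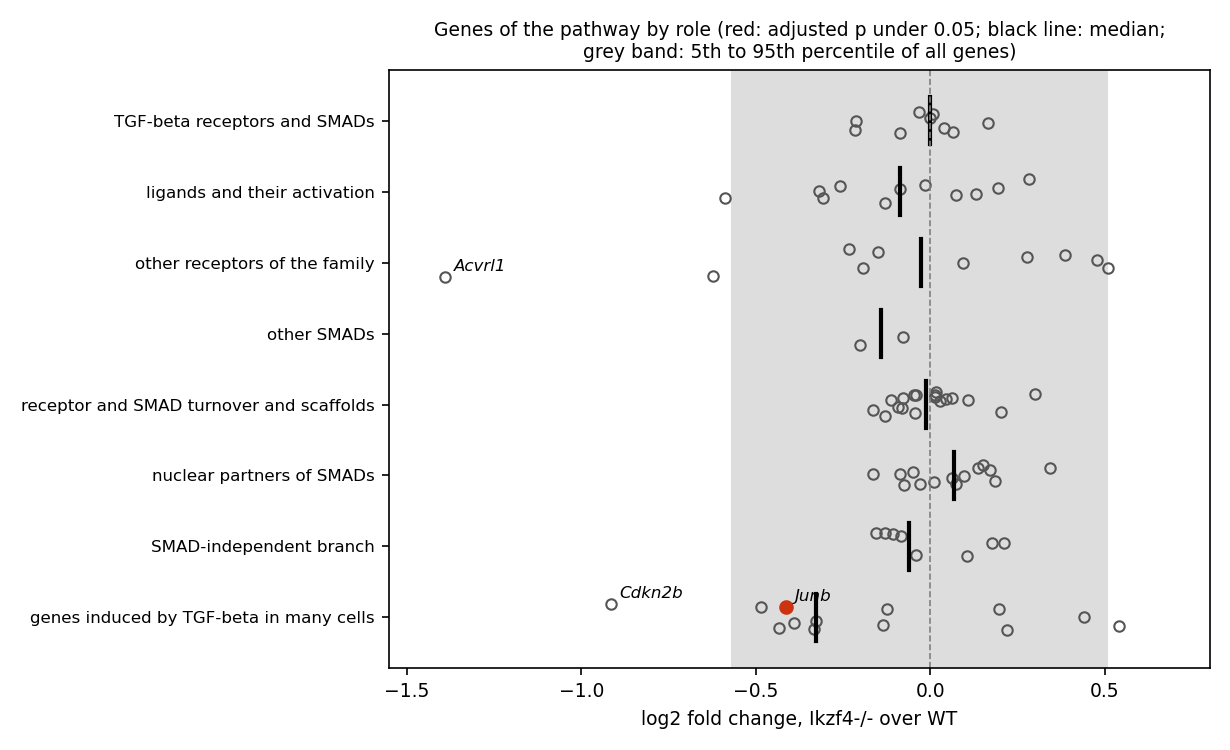
Log2 fold change (horizontal axis, Ikzf4-/- over WT) of every tested gene of the pathway by role; filled red points passed the limma test, black lines mark medians, and the grey band runs from the 5th to the 95th percentile of all genes. The 9 receptor and SMAD genes lie between -0.22 and 0.16, inside the band of -0.57 to 0.51, and the called gene Junb lies at -0.41.

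The genes whose log2 values followed each of the 4 members with the lowest p most closely over the 6 libraries were taken from 11599 others with a mean of at least 50. For Ski these were Glud1, Srsf9 and Btbd2 (Pearson r 0.996, 0.995 and 0.994), for Skil Slfn2, Acot6 and Glipr1 (0.998, 0.998 and 0.997), for Smad3 Man2b1, Mfsd8 and Phf20 (0.996, 0.994 and 0.984) and for Tgfb1 Yipf3, Acd and Zyx (0.989, 0.986 and 0.985). These are descriptions over 6 points that share library and genotype, chosen as the highest among all those genes. Of the 12, only Srsf9, a splicing factor gene, was called (log2 change -0.32, limma adjusted p = 0.044).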

How the data were processed

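Libraries of total RNA, 3 WT and 3 Ikzf4-/-, were grouped by the genotype in the labels. The submitters' processing notes name Trimmomatic 0.36, STAR 2.5.2b and DESeq2 and the builds GRCm38 and mm10; which program counted reads, and whether by strand, is not given in the sources used here. The deposited table holds, per gene and library, a never-negative signal, read here as reads divided by 1 size factor per library, since 100% of the values were whole multiples of 1 step per library (within 0.1 of a step). It also holds the authors' log2 fold changes, p-values and adjusted p-values. No count test was run, because the steps of Ikzf4-/- replicates 1 and 3 lie too near 1 for reads to be taken as recovered.

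Values were transformed to log2(value + 1), which understates changes of low genes. Genes with a mean of at least 10 were fitted with genotype as the only term in limma 3.58.1 (R 4.3.3; empirical Bayes with a mean-variance trend), two-sided, with Benjamini-Hochberg adjustment over all 14864 genes; called means an adjusted p under 0.05. The procedure was tested on simulated data. The planted changes were larger than those fitted for the 9 genes, so power at their size was not tested. Positions and exon lengths come from GENCODE M21 (GRCm38), matched by Ensembl identifier, and promoters from RefSeq. No exon of the 9 genes overlaps an exon of another gene there. Nothing in the labels says that a replicate number marks a shared animal, litter or day, so numbers were not taken to pair libraries. Same-numbered libraries had correlations of their deviations of 0.145, 0.0122 and 0.142, which do not settle whether they were paired. Named pathway genes were those called, the 2 with the lowest p not called and the most abundant of each list. A gene of the induced list and a B cell marker are not reported here, and the counts of their lists leave them out. Members and lists were chosen with earlier results of these data known. Alternatives were other scalings, filters and pseudocounts, array weights, a replicate block, leaving out each library, and the authors' table.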

Additional observations from a re-analysis of the deposited data

How the results depend on the processing

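All alternatives were planned. Over 16 alternatives, no member was called except Ski in the authors' deposited table (log2 fold change -0.21, 1 member called). Over all genes, 263 were called. The count was 754 with the replicate block, 482 with array weights, 815 in the authors' deposited table and 20 to 523 over the fits without 1 library, the fewest without Ikzf4-/- replicate 3 and the most without WT replicate 3. The cause was not tested. The fits without 1 library have fewer samples.

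Small changes near 0 changed sign. Smad2 was 0.0047 with quantile normalization, 0.0038 with upper quartile scaling, 0.027 with equal library totals, 0.022 with array weights and 0.0002 in the authors' table, and -0.0332 to 0.021 without 1 library. Tgfbr2 was -0.0524 with array weights and -0.05 to 0.0872 without 1 library. Smad4 ranged from -0.0744 to 0.0022 and Smad7 from -0.0094 to 0.13 without 1 library. Furin was 0.013 with equal library totals and -0.0566 to 0.0333 without 1 library, and the log2 ratio of Tgfbr2 to Tgfbr1 ranged from -0.11 to 0.07. Ski ranged from -0.25 to -0.17, Skil from 0.10 to 0.20 and Smad3 from -0.38 to -0.10 without changing sign. Equal totals moved the median of all genes to 0.03.

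By list, the replicate block called 1 other receptor (Acvrl1), 1 gene of the SMAD-independent branch (Map3k7) and 3 induced genes (Junb, Cdkn1a and Gadd45b), against 1. Array weights called 1 turnover gene and the same 3 induced genes, and quantile normalization 1 turnover gene (Usp9x). The authors' table gave 2 other receptors, 1 turnover gene, 1 nuclear partner (Tgif1), 1 gene of the SMAD-independent branch and 3 induced genes. Without 1 library, induced genes called ranged from 0 (without WT replicate 2, Ikzf4-/- replicate 1 or Ikzf4-/- replicate 3) to 3 (without WT replicate 3). The block changed no call of the 9 members; it gave Ski an adjusted p of 0.068 and Skil 0.125 (limma). The lowest value of the 9 genes in any library was 303 normalized reads, so none was near the limit set by depth.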

Other observations

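A gene named for the pathway but on none of the lists, and chosen after its values were seen, is described here by its values. Tgif2-ps2 (ENSMUSG00000045842, chromosome 17, 40115358 to 40116326 on the plus strand of GRCm38) is annotated as a transcribed processed pseudogene of the corepressor gene Tgif2. It had 1.06, 1.80 and 0.971 normalized reads in WT replicates 1 to 3, which correspond to 1, 2 and 1 reads, and 65.6, 85.8 and 81.4 in the Ikzf4-/- replicates (limma adjusted p = 0.00027). Tgif2 itself, on chromosome 2, had 411, 589 and 468 normalized reads in WT and 482, 439 and 446 in Ikzf4-/- libraries (log2 change -0.09, limma adjusted p = 0.77). Reads of a near-identical copy can be assigned to either gene, and their handling is not given in the sources used here, so both values are uncertain.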
